A study of Drosophila melanogaster with 43 samples.

Results

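The proteasome subunit genes of Drosophila melanogaster were taken as every gene symbol that starts with Prosalpha or Prosbeta, with Pros and a digit, or with Rpn or Rpt and a digit. This gave 41 genes of the 13792 genes listed for S2 cells, each of which was also found among the 14447 named features of fly heads. By name, 28 of them encode the subunits that most cells use, called somatic here, and 13 encode testis forms, whose names end in T or R with or without a further digit, and Pros28.1A and Pros28.1B, now called Prosalpha4T1 and Prosalpha4T2. The somatic genes comprised 13 of the core particle (7 alpha and 6 beta) and 15 of the regulatory particle (8 of its base and 7 of its lid). The symbol rule leaves out 7 further subunit genes filed under other symbols, which are given beside the members: CG17331 (Prosbeta4), Tbp-1 (Rpt5), Mov34 (Rpn8), CG13349 (Rpn13), CG30382 (Prosalpha1R), CG31742 (Prosbeta5R2) and CG6789 (Rpn13R).

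The proteasome is the protease that breaks down proteins tagged with ubiquitin. Its core particle is a barrel of stacked rings, in which alpha subunits form the outer rings and the gate and beta subunits form the inner rings that hold the proteolytic sites. The regulatory particle sits on the ends of the barrel. Its base carries the Rpt ATPases, which unfold substrates, and ubiquitin receptors, and its lid carries Rpn11, which removes ubiquitin. In flies many subunits have a second gene that is used mainly in the male germ line.

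Messenger RNA was measured by sequencing, in a series on the fly CPEB proteins Orb and Orb2, RNA-binding regulators of translation. Processed values were used for 16 of the 43 samples, and the crosslinking libraries were not analysed here. S2 cells are a cultured line with features of blood cells. There were 2 libraries of S2 cells that overexpressed Orb2B, a form of Orb2, and were kept with 250 µM CuSO4 and 300 µg/ml hygromycin B, and 2 of untransfected background cells kept with 250 µM CuSO4 and no hygromycin named in the labels, both in Schneider's medium at 27 °C. Selection with the drug therefore goes with the transgene, and their effects cannot be told apart. The heads were of 1 genotype, Orb2 WT-GFP, from flies grown at 25 °C on semi-defined medium, and their extract was treated with b-isox, a compound that precipitates proteins with low-complexity regions along with RNA. This gave 6 pellet and 6 supernatant libraries, and both fractions therefore carry the tagged Orb2. The labels do not give the age or sex of the flies, nor whether each replicate was a culture or fly collection of its own, so the spread behind the p-values may be technical.

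Values are RPKM for S2 cells and FPKM for heads, both per length of transcript, each divided by a factor per library that sets the median gene level (scaled below). Log2 differences and tests are on log2(scaled value + 0.5), which understates the change of low genes. A gene was called changed at a Benjamini-Hochberg adjusted p under 0.05 in limma, adjusted over all genes whose mean was 1 or more. Sequencing depth in reads is unknown. From the steps of low RPKM values, the libraries of Orb2B replicate 1, background replicate 1 and background replicate 2 were 0.592, 0.603 and 0.472 times as deep as that of Orb2B replicate 2. The transgene was visible in the S2 libraries: orb2 had 2687 and 2744 scaled RPKM in Orb2B-overexpressing cells, against 7.75 and 8.03 in background cells (log2 difference 8.34, limma adjusted p = 5.24e-07). The 10 blood cell markers were each above 0 in some S2 library, with a summed level of 155 to 198 scaled RPKM in Orb2B-overexpressing cells, against 278 to 282 in background cells. In bulk libraries fewer cells of a type and less RNA per cell cannot be told apart. Of the 10 blood cell markers, 8 reached a mean of 1 and were tested, and 5 of these fell and 0 rose. Hml, eater, Sr-CI and proPO-A1 were each under 1 scaled RPKM in both Orb2B libraries, which alone does not show a fall. Hml had 0.0111 and 0.154 there, against 10.4 and 5.06 in background cells.

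Somatic proteasome mRNAs were abundant in both materials. In S2 cells the median somatic member lay at the percentile 95.3 to 96.5 of all listed genes in each library, and in heads at 89.6 to 94.3. Core particle mRNAs stood above regulatory particle mRNAs per length. The core median was 184 and 212 scaled RPKM in Orb2B-overexpressing cells and 214 and 152 in background cells. The regulatory median was 86.2 and 92.7 scaled RPKM in Orb2B-overexpressing cells and 111 and 104 in background cells. The difference between the medians of the particles on the log2 scale amounted to 2.13-fold and 2.28-fold in Orb2B-overexpressing cells, against 1.93-fold and 1.46-fold in background cells. In heads it was 1.69-, 1.896-, 1.499- and 1.78-fold in pellets, against 1.47-, 1.29-, 1.76- and 1.34-fold in supernatants. The ranges of pellets and supernatants overlapped. The S2 core medians include Prosalpha1, which was listed at 0. Without it the core medians of S2 cells were 186 and 215 in the Orb2B libraries and 216 and 158 in the background libraries, and the folds were 2.15 and 2.31, against 1.95 and 1.52.

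**Figure D1:**
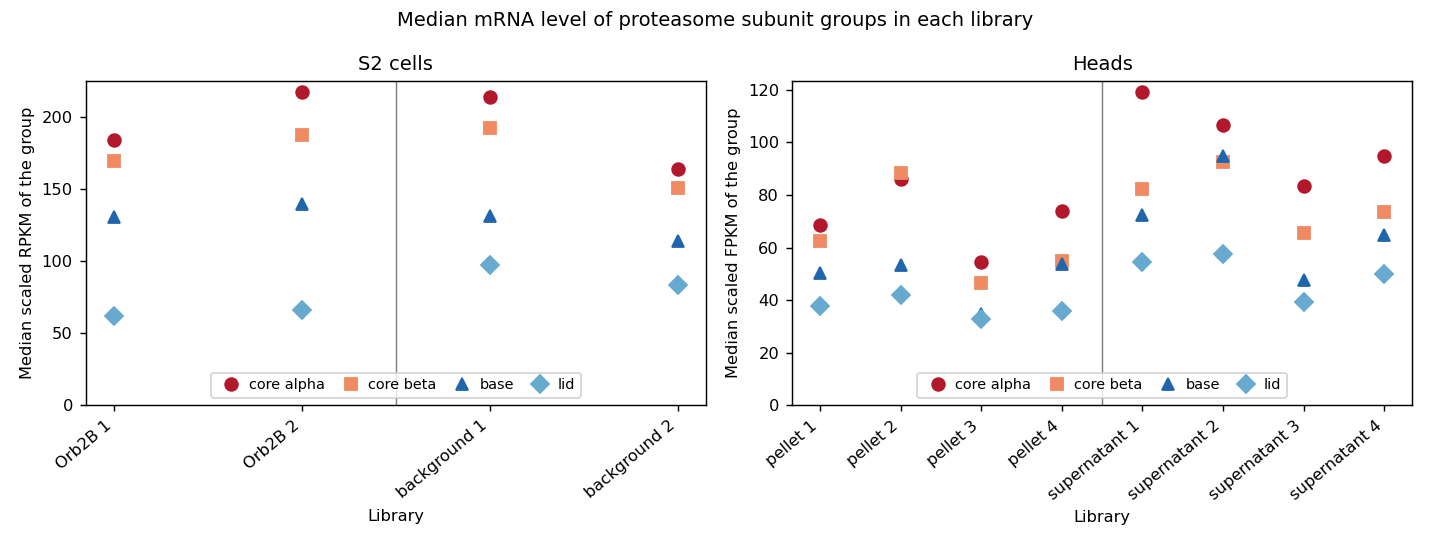
Median scaled level of the proteasome subunit groups (vertical axes, scaled RPKM for S2 cells on the left and scaled FPKM for heads on the right) in each library (horizontal axes). Points are medians over the listed genes of a group, among them Prosalpha1 at 0 in S2 cells. In S2 cells the core alpha and core beta medians lie above the base and lid medians in each library, and the lid median is 61.7 and 65.8 in the Orb2B libraries against 97.6 and 83.4 in the background libraries.

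Among background S2 cells the highest means were those of Prosbeta5 (322 ± 24.0 scaled RPKM, SD, n = 2) and Prosbeta1 (301 ± 48.4), which carry the chymotrypsin-like and the caspase-like site. The lowest were Rpn5 (59.0 ± 13.9), Rpn6 (63.5 ± 10.6) and Rpn1 (67.7 ± 5.21), and these 3 did not differ beyond their spread. In head supernatants, among members with a feature of their own, Prosalpha7 was highest (344 ± 29.3 scaled FPKM, SD, n = 4) and Pros28.1 (Prosalpha4) was lowest (20.05 ± 2.90), with Rpn6 (22.7 ± 5.67) and Rpt3 (22.7 ± 5.66) within the spread of it. Across the 21 somatic members that share no head feature with another gene, the mean levels of background S2 cells and head supernatants had a Spearman rho of 0.45, given as a description over genes measured by different procedures. Prosalpha1 was listed at 0 in all 4 S2 libraries, as was its near-identical copy CG30382. The files do not say why, and no S2 level of the pair is drawn from these values. In heads the pair was joined in 1 library and its values were summed, at 55.6 to 86.3 scaled FPKM in pellets and 80.0 to 107 in supernatants.

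Overexpression of Orb2B in S2 cells was set against background cells to ask how the transcriptome differs when the protein is present. Of 29 members tested, 1 rose (Prosalpha5) and 6 fell: Prosbeta2, Rpn9, Rpn5, Rpn3 and the testis forms Rpt6R and Rpt3R. Of all 7069 genes tested, 17.0% rose and 19.8% fell, 36.8% in either direction. Among the 27 somatic members tested, 3.70% rose (1 gene) and 14.8% fell (4 genes). Of the somatic subunit genes outside the rule, CG17331 and Tbp-1 fell too, and Mov34 and CG13349 did not pass. By the sign of the log2 difference alone, 18 of the 27 members were lower and 9 higher, where 50.1% of all genes were lower. The somatic median log2 difference was -0.19, beside 0.00 over all genes tested. The members that passed belonged to different parts of the particle, as the following paragraphs give in turn.

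**Figure D2:**
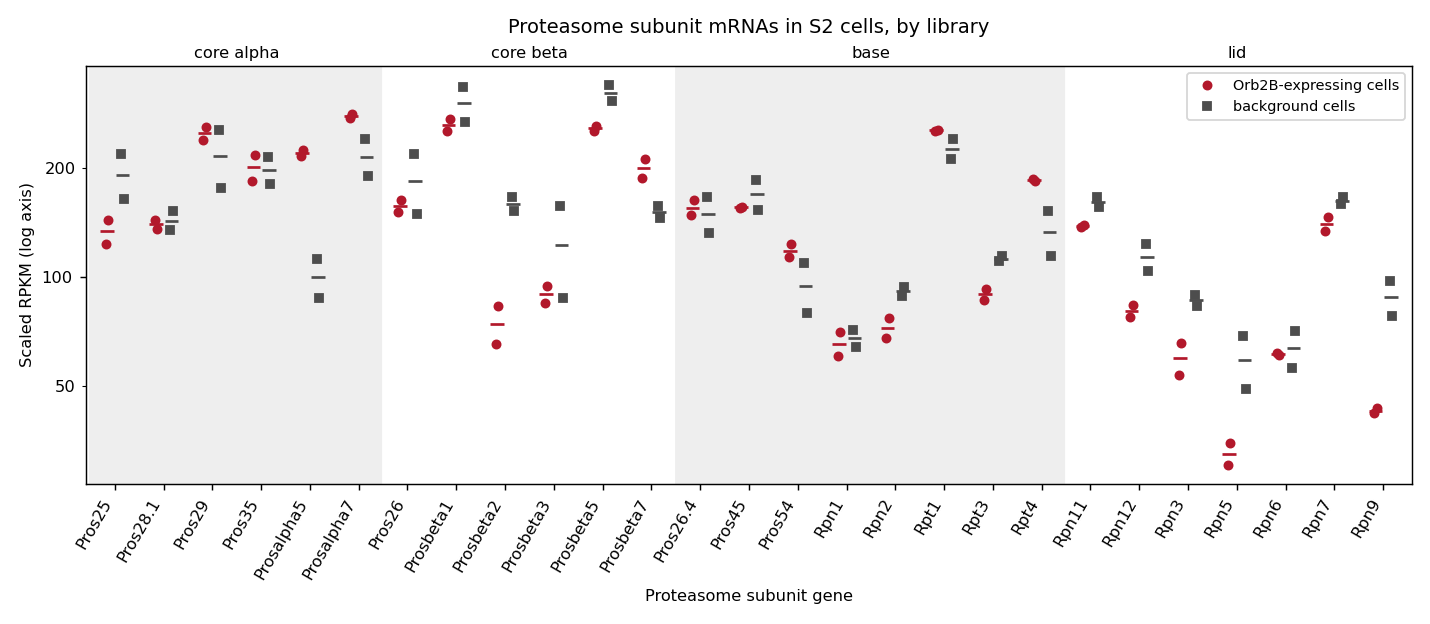
Scaled RPKM (vertical axis, log scale) of the 27 somatic proteasome subunit genes tested in S2 cells (horizontal axis, grouped by part of the particle). Points are libraries, 2 of Orb2B-overexpressing cells and 2 of background cells, and bars are means. Prosalpha5 is higher in both Orb2B libraries, and Prosbeta2, Rpn3, Rpn5 and Rpn9 are lower in both.

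In the alpha ring, Prosalpha5 (FBgn0016697, dm3 chromosome 2R, 13300269 to 13301274) had 216 and 224 scaled RPKM in Orb2B-overexpressing cells, against 112 and 87.7 in background cells. The groups did not overlap, and each pair of replicates was close beside the gap between the groups. The means were 219.5 ± 5.70 and 99.9 ± 17.2 (SD, n = 2 each), a 2.20-fold higher level (log2 difference 1.14, SE 0.19, limma adjusted p = 0.00331). Pros25 (Prosalpha2) had the lowest difference of the ring, with 123 and 144 scaled RPKM in Orb2B-overexpressing cells against 218 and 164 in background cells (log2 difference -0.50, limma adjusted p = 0.0892). The other 4 tested alpha members had log2 differences from -0.03 for Pros28.1 to 0.38 for Prosalpha7 and did not pass. The ring's median log2 difference was 0.13. It was -0.07 with quantile normalization and -0.01 without background replicate 2.

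Of the beta subunits, Prosbeta2 (FBgn0023174, dm3 chromosome 3L, 14993051 to 14994419), which carries the trypsin-like site, had 65.1 and 83.4 scaled RPKM in Orb2B-overexpressing cells, against 167 and 152 in background cells. It was lower in both Orb2B libraries, and the level was 0.467 times that of background cells (means 74.3 ± 12.9 and 159 ± 10.5, SD, n = 2 each; log2 difference -1.10, SE 0.19, limma adjusted p = 0.00392). Without Orb2B replicate 1 its adjusted p in limma was 0.0543. The subunits with the other proteolytic sites, Prosbeta1 and Prosbeta5, had log2 differences of -0.19 and -0.32 and did not pass (limma adjusted p = 0.471 and 0.188). Prosbeta7 was the highest of the group, with 187 and 212 scaled RPKM in Orb2B-overexpressing cells against 157 and 146 in background cells (log2 difference 0.40, limma adjusted p = 0.112). The beta median was -0.26, with 5 of 6 members below 0. It was -0.46 with quantile normalization, and without background replicate 1 it was -0.01 with 3 of 6 members below 0.

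Prosbeta4, filed as CG17331 and so not a member by the rule, had a lower log2 difference than any beta member. Its level was 34.2 and 41.1 scaled RPKM in Orb2B-overexpressing cells, against 106 and 81.6 in background cells, without overlap. The log2 difference was -1.30 (SE 0.20, limma adjusted p = 0.00251). It kept an adjusted p under 0.05 under each of the 12 alternatives run.

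None of the 8 members of the base passed in limma, where 1 had an unadjusted p under 0.05, beside 47.9% of all genes. The highest was the ATPase Rpt4, with 187 and 184 scaled RPKM in Orb2B-overexpressing cells against 152 and 114 in background cells (log2 difference 0.49, limma adjusted p = 0.0844). The lowest was Rpn2, a scaffold of the base, with 67.7 and 76.9 in Orb2B-overexpressing cells against 88.7 and 93.9 in background cells (log2 difference -0.34, limma adjusted p = 0.153). The base median was 0.01, and -0.14 with quantile normalization. The remaining ATPase gene, Rpt5, filed as Tbp-1, did pass: it had 31.3 and 39.3 scaled RPKM in Orb2B-overexpressing cells and 62.8 and 56.4 in background cells (log2 difference -0.75, SE 0.18, limma adjusted p = 0.0165). Without Orb2B replicate 1 its adjusted p was 0.241. The ubiquitin receptor Rpn13, filed as CG13349, had 159 and 149.7 scaled RPKM in Orb2B-overexpressing cells against 126 and 95.8 in background cells and did not pass (log2 difference 0.49, limma adjusted p = 0.0826).

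The lid was the part with the lowest median log2 difference. All 7 lid members had a log2 difference below 0, from -1.02 to -0.04 with a median of -0.49, and 3 of the 7 fell. In 6 of 7 lid members (85.7%) both Orb2B libraries were below both background libraries, beside 36.5% of all genes, and none was above without overlap, beside 36.6%. The lid subunit Mov34 (Rpn8), outside the rule, went the other way: both its Orb2B libraries were above both background libraries (log2 difference 0.18). The 7 lid differences were below 0 under each scaling run, and 6 of 7 were without background replicate 2. The lid as a group was not tested against the other parts.

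Rpn9 (FBgn0028691, dm3 chromosome 3R, 19557225 to 19559184), a lid subunit that contributes to lid assembly in yeast, had 42.1 and 43.4 scaled RPKM in Orb2B-overexpressing cells, against 97.6 and 78.1 in background cells. The means of 42.7 ± 0.955 and 87.9 ± 13.8 (SD, n = 2 each) did not overlap (log2 difference -1.02, SE 0.18, limma adjusted p = 0.00444). Rpn5 (FBgn0028690, dm3 chromosome 3R, 1615211 to 1617291), a scaffold subunit of the lid, had 30.4 and 34.7 scaled RPKM in Orb2B-overexpressing cells and 68.8 and 49.2 in background cells. Its means were 32.5 ± 3.09 and 59.0 ± 13.9 (log2 difference -0.83, SE 0.21, limma adjusted p = 0.018), and its adjusted p was 0.141 without Orb2B replicate 1.

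Rpn3 (FBgn0261396, dm3 chromosome 2L, 19051830 to 19053681), another scaffold subunit of the lid, had 53.8 and 65.8 scaled RPKM in Orb2B-overexpressing cells, against 89.4 and 83.4 in background cells. With means of 59.8 ± 8.52 and 86.4 ± 4.30 it lay just past the threshold (log2 difference -0.53, SE 0.18, limma adjusted p = 0.0497), and it missed it under 7 of 12 alternatives. Left out of the fit, Orb2B replicate 1, Orb2B replicate 2 and background replicate 1 gave adjusted p-values of 0.484, 0.129 and 0.0559 for Rpn3. Rpn6 was the highest of the lid, with 61.7 and 61.0 scaled RPKM in Orb2B-overexpressing cells and 56.1 and 71.0 in background cells, which overlapped (log2 difference -0.04, limma adjusted p = 0.887). Mov34, the fly Rpn8 and the partner of Rpn11 in the lid, had 173 and 171 scaled RPKM in Orb2B-overexpressing cells and 165 and 138 in background cells (log2 difference 0.18, limma adjusted p = 0.442).

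Set side by side, the core particle had 1 member that rose and 1 that fell of 12 tested, with a median log2 difference of -0.11. The regulatory particle had none that rose and 3 that fell of 15 tested, with a median of -0.21. Of all 7069 genes tested, 17.0% rose and 19.8% fell. The share of regulatory members that fell was close to that of all genes, and both shares of core members were lower. With quantile normalization the core median was -0.30 and the regulatory median -0.40. Prosalpha5, Rpn9 and Rpt6R passed under each of the 12 alternatives run. The lower blood cell markers given above went with the same libraries, and their part in these differences was not tested.

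**Figure D3:**
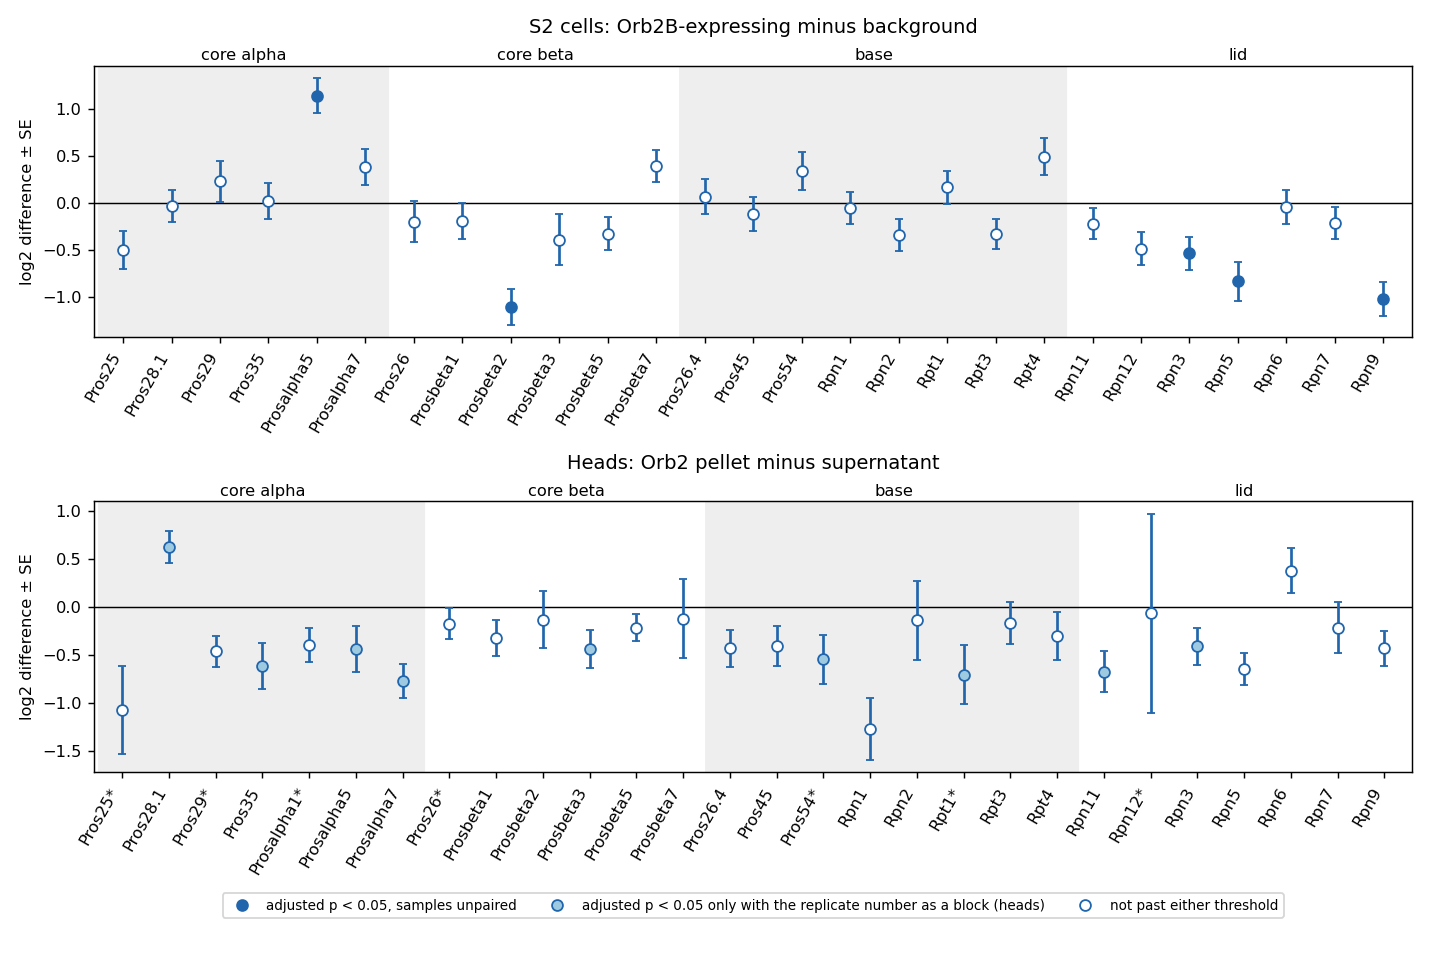
Log2 difference ± SE (vertical axes) of each tested somatic proteasome subunit gene (horizontal axes) between Orb2B-overexpressing and background S2 cells (top) and between head pellets and supernatants (bottom), relative to the median gene. Filled points passed limma at an adjusted p under 0.05, light points did so only with the replicate number as a block in heads, and an asterisk marks a head feature joined with another gene in some library. In S2 cells 1 gene is above and 4 are below 0 past the threshold, and in heads 26 of 28 lie below 0. Values as deposited put 2 of 28 below 0 in heads, where the median over all features is 0.87.

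Of the 13 testis forms, 8 were listed at 0 in all 4 S2 libraries and a pair of base ATPases stood above 0 in each. A listing at 0 does not show that a gene was silent, since the somatic Prosalpha1 was listed at 0 too. Prosalpha6T had 0.0681 and Pros28.1A (Prosalpha4T1) 0.0367 scaled RPKM in Orb2B replicate 2 and 0 in the other libraries. Prosbeta2R2 had 0.106 in Orb2B replicate 1 and 0.200 in background replicate 1, and 0 in the others. Values of this size do not allow a comparison.

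Rpt6R (FBgn0039788, dm3 chromosome 3R, 26407920 to 26409419), the second gene for the ATPase Rpt6, had 0.994 and 3.77 scaled RPKM in Orb2B-overexpressing cells, against 12.8 and 11.8 in background cells. Both Orb2B libraries were lower, though they differed among themselves (means 2.38 ± 1.97 and 12.3 ± 0.693, SD, n = 2 each; log2 difference -2.34, SE 0.44, limma adjusted p = 0.0059). Rpt3R (FBgn0037742, dm3 chromosome 3R, 5580455 to 5582232), the second gene for Rpt3, had 0.828 and 1.57 scaled RPKM in Orb2B-overexpressing cells, against 5.28 and 6.46 in background cells. Its means were 1.20 ± 0.522 and 5.87 ± 0.836 (log2 difference -1.94, SE 0.28, limma adjusted p = 0.00211).

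These 2 forms were the members with the lowest log2 differences in S2 cells. Their levels stayed far under those of the somatic genes. Rpt6R had 0.642% and 2.42% of the level of Pros45 (Rpt6) in Orb2B-overexpressing cells, against 6.91% and 7.72% in background cells. Rpt3R had 0.960% and 1.69% of the level of Rpt3 in Orb2B-overexpressing cells, against 4.76% and 5.66% in background cells. The somatic genes themselves did not pass: Pros45 had 155 and 156 scaled RPKM in Orb2B-overexpressing cells and 185 and 153 in background cells (log2 difference -0.11, limma adjusted p = 0.646), and Rpt3 had 86.2 and 92.7 against 111 and 114 (log2 difference -0.33, limma adjusted p = 0.151).

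Of 20 testis markers, 14 were above 0 in some S2 library and Mst84Da, Mst84Db, Mst84Dd, Mst35Ba, aly and can were listed at 0 in all of them. Their summed level was 2.42 to 2.95 scaled RPKM in Orb2B-overexpressing cells, against 5.48 to 9.17 in background cells. Only 2 of the 20 reached a mean of 1 and were tested, and 1 of these fell. The part of the testis markers in the differences of Rpt6R and Rpt3R was not tested. Of the copies outside the rule, CG31742 (Prosbeta5R2) was listed at 0 in each S2 library and CG6789 (Rpn13R) had 0.0318 scaled RPKM in Orb2B replicate 2 and 0 elsewhere.

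**Figure D4:**
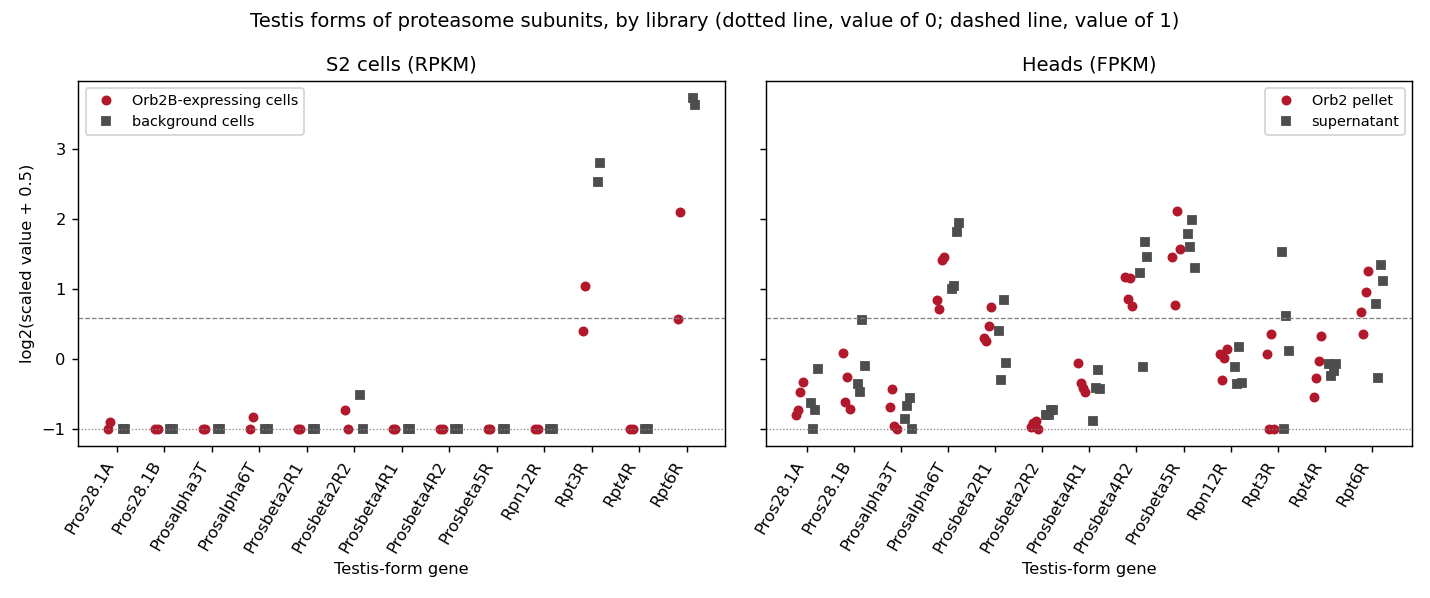
Levels of the 13 testis forms as log2(scaled value + 0.5) (vertical axis) in each library of S2 cells (left, RPKM) and heads (right, FPKM), by gene (horizontal axes). Points are libraries, the dotted line marks a value of 0 and the dashed line a value of 1. In S2 cells Rpt3R and Rpt6R stand above 0 in all libraries, higher in the 2 background libraries, and in heads Prosalpha6T, Prosbeta5R, Prosbeta4R2 and Rpt6R reach a mean above 1.

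The genes that feed substrates to the proteasome were followed in 8 lists of 65 genes, of which 62 were tested in S2 cells. Of these, 4 rose (6.45%) and 9 fell (14.5%), with a median log2 difference of -0.06, beside 17.0% and 19.8% of all genes. Of 4 ubiquitin genes, 2 fell: the polyubiquitin gene Ubi-p63E had 16.7 ± 0.116 scaled RPKM in Orb2B-overexpressing cells and 36.4 ± 1.83 in background cells (SD, n = 2 each; log2 difference -1.10, limma adjusted p = 0.00251), and Ubi-p5E had 23.8 ± 3.30 and 41.9 ± 6.98 (log2 difference -0.80, limma adjusted p = 0.0169). Substrate delivery and unfolding was the list with most rises, 3 of 7 with none that fell. Rad23, a shuttle that carries ubiquitinated proteins to the proteasome, had 5.49 ± 0.711 scaled RPKM in Orb2B-overexpressing cells and 1.42 ± 0.194 in background cells (log2 difference 1.64, limma adjusted p = 0.00189). The p97 cofactor p47 had 135 ± 4.65 in Orb2B-overexpressing cells and 61.7 ± 8.85 in background cells (log2 difference 1.13, limma adjusted p = 0.00282), and Faf of the same list had 85.3 ± 0.514 and 47.9 ± 7.47 (log2 difference 0.83, limma adjusted p = 0.00999).

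Among 12 tested enzymes that activate or conjugate ubiquitin, 1 rose and 2 fell. The conjugating enzyme ben had 54.5 ± 4.03 scaled RPKM in Orb2B-overexpressing cells and 117 ± 13.97 in background cells (SD, n = 2 each; log2 difference -1.10, limma adjusted p = 0.00303), and crl, another conjugating enzyme, had 25.9 ± 1.23 and 46.4 ± 3.65 (log2 difference -0.83, limma adjusted p = 0.00826). The COP9 signalosome, a complex built much like the lid that removes the Nedd8 tag from ubiquitin ligases, had 3 of 8 tested genes that fell and none that rose, with a median log2 difference of -0.30. Its subunit alien (CSN2) had 5.10 ± 0.368 scaled RPKM in Orb2B-overexpressing cells and 10.7 ± 0.331 in background cells (log2 difference -0.997, limma adjusted p = 0.00683), and CSN3 had 15.1 ± 0.781 and 25.3 ± 2.06 (log2 difference -0.73, limma adjusted p = 0.0158). Of 6 proteasome regulators and assembly factors 1 fell, CG13319, with 39.0 ± 4.85 in Orb2B-overexpressing cells and 74.2 ± 18.5 in background cells (log2 difference -0.90, limma adjusted p = 0.0151). None of the 5 deubiquitinases and none of the 6 genes of the list around cnc, the activator of proteasome genes, passed in limma, where 0 and 1 of them had an unadjusted p under 0.05. Of the 14 ligase core genes 1 fell. Without Orb2B replicate 1, the adjusted p was 0.19 for Ubi-p5E, 0.0641 for Faf, 0.0681 for crl, 0.0884 for alien, 0.193 for CSN3 and 0.12 for CG13319. Without Orb2B replicate 2 it was 0.0563 for Faf, 0.0835 for crl and 0.101 for CSN3.

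In heads, pellets were set against supernatants to ask which mRNAs the b-isox precipitate holds. The test used the 4 replicates of each fraction whose files name genes. In the unpaired test none of the 32 members tested passed in limma, and 10 had an unadjusted p under 0.05, all 10 of them somatic. Of 8633 features tested, 2.02% rose, 1.81% fell, 3.82% in either direction, and 22.7% had an unadjusted p under 0.05. Libraries of the same replicate number deviated together, and with the number as a block 9 members passed, 1 higher and 8 lower in pellets, beside 7.04% of features higher and 7.7% lower. Relative to the median gene, 26 of the 28 somatic members were lower in pellets, with a median log2 difference of -0.41. All features had a median of -0.02 and 51.3% of them were lower. On the values as deposited the median over all features was 0.87. There the core and regulatory medians were 0.60 and 0.58, and 2 of 28 somatic members were lower.

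Relative to the median gene, the median log2 difference was -0.39 over the 13 core members and -0.41 over the 15 regulatory members, and by ring and subcomplex -0.46 for alpha, -0.19 for beta, -0.42 for the base and -0.41 for the lid. Within pairs of the same replicate number, 21 somatic members (75.0%) were lower in the pellet of every pair and 2 were higher in every pair, beside 24.9% and 21.8% of all features. Pairs with a missing value were left out, so that Pros29 and Rpn7 were counted on fewer pairs. In 7 somatic members (25.0%) every pellet with a value was below every supernatant with a value, beside 8.03% of all features. Pros29, 1 of the 7, lacked a value in a library of each fraction. In 1 somatic member the pellets were above the supernatants without overlap, beside 8.15% of all features. With the block, 28.6% of the somatic members were lower and 3.57% higher past the threshold. Since members share their source and were chosen together, these shares are given as a description.

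**Figure D5:**
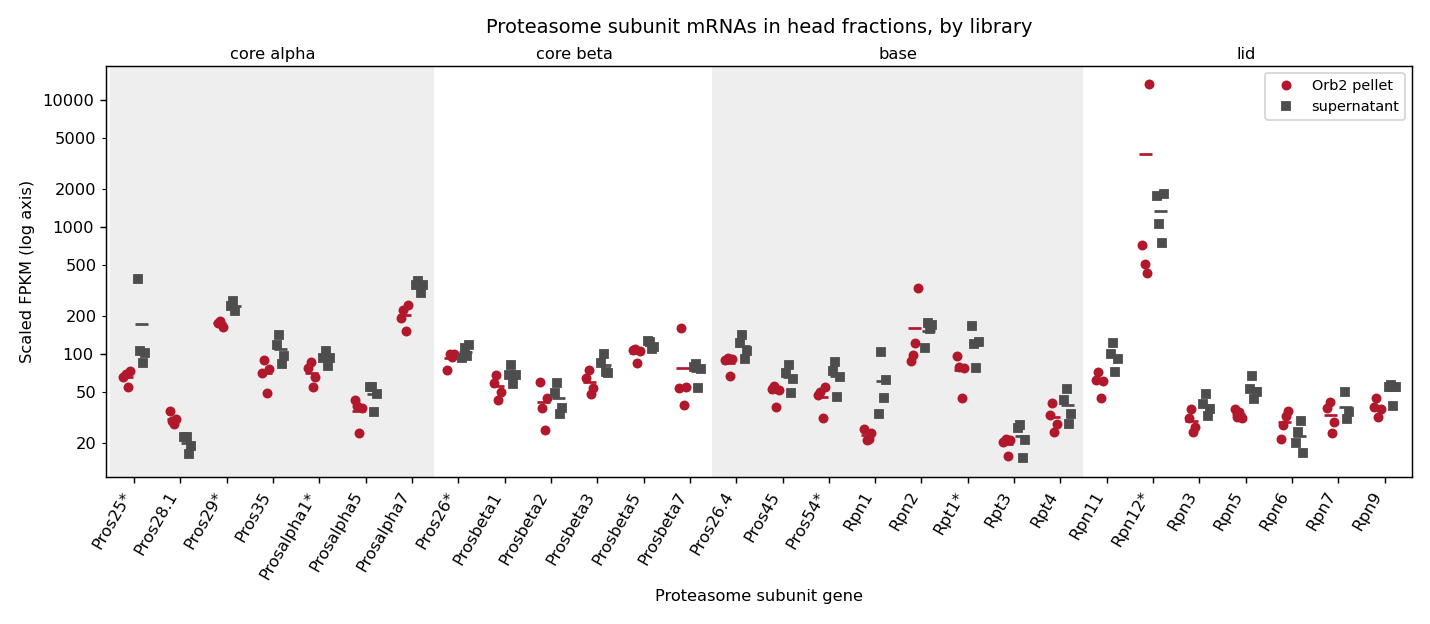
Scaled FPKM (vertical axis, log scale) of the 28 somatic proteasome subunit genes in heads (horizontal axis, grouped by part of the particle). Points are libraries, 4 b-isox pellets and 4 supernatants, bars are means, and an asterisk marks a feature joined with another gene in some library. Relative to the median gene, Prosalpha7 pellets lie at 153 to 246 below supernatants at 303 to 373, and Pros28.1 pellets at 28.09 to 35.6 lie above supernatants at 16.3 to 22.5.

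Among the alpha subunits, Prosalpha7 (FBgn0023175, dm3 chromosome 2R, 5734141 to 5735341) had 194, 224, 153 and 246 scaled FPKM in pellets, against 351, 373, 303 and 347 in supernatants. The fractions did not overlap. The means were 204 ± 40.2 and 344 ± 29.3 (SD, n = 4 each; log2 difference -0.77, SE 0.17, limma adjusted p = 0.0539, and 0.0257 with the block). Pros28.1 (FBgn0004066, dm3 chromosome X, 16170305 to 16171620), the gene of Prosalpha4, went the other way, with 35.6, 29.7, 28.09 and 30.8 in pellets and 22.3, 22.5, 16.3 and 19.1 in supernatants. Each of its pellets was above each supernatant, and the level was 1.55-fold higher (means 31.0 ± 3.22 and 20.05 ± 2.90; log2 difference 0.62, SE 0.16, limma adjusted p = 0.0777, and 0.0327 with the block). With FlyBase entries of 1 gene only its log2 difference was 0.75 (limma adjusted p = 0.0217).

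The other alpha members had log2 differences from -0.39 to -1.07 in the direction of Prosalpha7, relative to the median gene. Pros35 (Prosalpha6) had 71.7, 89.2, 49.2 and 75.9 scaled FPKM in pellets and 119, 140.3, 83.4 and 96.0 in supernatants, with the third library the lowest of each fraction (log2 difference -0.62, limma adjusted p = 0.179, and 0.0351 with the block). Prosalpha5, which rose in Orb2B-overexpressing S2 cells, had 43.4, 39.2, 23.9 and 37.5 in head pellets and 55.3, 55.3, 34.9 and 48.4 in supernatants (log2 difference -0.43, limma adjusted p = 0.319, and 0.0454 with the block). Pros25 had the lowest alpha value, and 1 library decided it. The Pros25 feature was joined with CG5245 in 1 library and summed with it elsewhere. This feature had 65.8, 70.0, 54.7 and 74.1 in pellets and 393, 106, 85.1 and 102 in supernatants (log2 difference -1.07, SE 0.46, limma adjusted p = 0.214). The log2 difference was -0.57 without supernatant replicate 1, whose Pros25 value came from an assembled transcript entry and not a FlyBase entry.

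The beta subunits differed least. Prosbeta3 had the lowest log2 difference, with 65.2, 75.4, 49.0 and 54.2 scaled FPKM in pellets and 85.1, 101, 72.6 and 71.0 in supernatants (log2 difference -0.44, limma adjusted p = 0.227, and 0.0415 with the block). The fractions overlapped, though every pellet was below the supernatant of its number. Prosbeta7 had 54.4, 161, 39.96 and 55.4 in pellets and 79.1, 84.0, 54.5 and 75.8 in supernatants (log2 difference -0.12, limma adjusted p = 0.884), and -0.54 without pellet replicate 2, an assembled entry. Prosbeta2, which fell in S2 cells, overlapped between fractions, with 59.9, 37.5, 25.5 and 45.4 in pellets and 49.7, 59.5, 33.7 and 37.8 in supernatants (log2 difference -0.13, limma adjusted p = 0.825). CG17331 (Prosbeta4) had 160.5, 158, 131 and 172 in pellets and 172, 168, 379.9 and 187 in supernatants (log2 difference -0.46, limma adjusted p = 0.351), but this feature was summed with the neighbouring CG17996. Its own entries, where present, stood at 74.6, 53.5 and 45.7 in pellets 2 to 4 and at 71.9, 78.0 and 265.6 in supernatants 1 to 3.

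In the base, Rpn1 had 26.0, 21.0, 21.5 and 23.9 scaled FPKM in pellets, against 33.5, 103, 45.3 and 62.7 in supernatants. Rpn1 is a scaffold that receives ubiquitin and shuttle proteins. It had the lowest log2 difference of all somatic members (-1.27, SE 0.32, limma adjusted p = 0.074), but 3 of its 4 supernatant values came from assembled entries and no pellet value did, and with FlyBase entries of 1 gene only the log2 difference was -0.39 (limma adjusted p = 0.389). Rpn2 was the highest of the base, with 87.9, 98.0, 123 and 330.0 in pellets and 111, 176, 157 and 168 in supernatants (log2 difference -0.14, limma adjusted p = 0.87), and -0.56 without pellet replicate 4.

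The base members that passed with the block, Rpt1 and Pros54, were lower in pellets relative to the median gene. Rpt1, an ATPase joined with CG17985 in 3 libraries, had 97.5, 78.8, 45.1 and 78.3 scaled FPKM in pellets and 166, 119, 77.4 and 126 in supernatants (log2 difference -0.70, limma adjusted p = 0.216, and 0.0205 with the block). Pros54 (Rpn10), a ubiquitin receptor gene joined with CG33289 in 1 library, had 48.0, 50.4, 31.6 and 54.7 in pellets and 73.2, 86.6, 45.7 and 66.2 in supernatants (log2 difference -0.55, limma adjusted p = 0.245, and 0.0473 with the block). Tbp-1 (Rpt5) had 43.4, 42.1, 34.4 and 49.4 in pellets, all below the 59.5, 60.6, 52.4 and 55.8 in supernatants (log2 difference -0.44, limma adjusted p = 0.152, and 0.0638 with the block).

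In the lid, Rpn11 (FBgn0028694, dm3 chromosome 2L, 5058404 to 5059790), the deubiquitinase, had 63.01, 71.9, 45.3 and 61.1 scaled FPKM in pellets, against 101, 122, 72.1 and 92.3 in supernatants. The means were 60.3 ± 11.05 and 96.9 ± 20.8 (SD, n = 4 each; log2 difference -0.67, SE 0.21, limma adjusted p = 0.119, and 0.021 with the block). Its partner Mov34 (Rpn8) had 49.2, 58.0, 37.9 and 45.3 in pellets, all below the 143, 107, 63.4 and 77.2 in supernatants (log2 difference -0.98, SE 0.27, limma adjusted p = 0.0932, and 0.0341 with the block). With FlyBase entries of 1 gene only the log2 difference of Mov34 was -0.54 (limma adjusted p = 0.306). Both genes of this catalytic pair were lower in each pellet than in the supernatant of its number, relative to the median gene.

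Rpn3, which fell in S2 cells, had 31.4, 36.7, 24.6 and 26.6 scaled FPKM in head pellets and 40.8, 48.3, 32.5 and 37.0 in supernatants (log2 difference -0.41, limma adjusted p = 0.249, and 0.045 with the block). Rpn5 had 37.3, 31.9, 35.3 and 31.6 in pellets and 53.5, 67.6, 44.5 and 50.1 in supernatants, without overlap (log2 difference -0.64, limma adjusted p = 0.0777, and 0.0553 with the block). Rpn6 was higher in every pair by number, with 21.4, 28.0, 32.7 and 35.9 in pellets and 20.1, 24.2, 29.8 and 16.6 in supernatants, which overlapped (log2 difference 0.38, limma adjusted p = 0.378). All 8 Rpn6 values came from assembled entries. The Rpn12 feature held the neighbouring CG4169 in 2 libraries. It reached 13240.3 in pellet replicate 4, where the entry of Rpn12 alone stood at 79.7, so no level of Rpn12 is drawn from it. The feature is still among the 28 somatic members in the counts and medians of heads. With own entries of joined members in place of joined features, 25 of 27 somatic members were lower in pellets (median log2 difference -0.43). The own entries of Rpn12, present in 3 libraries of each fraction, gave a log2 difference of -0.53 (limma adjusted p = 0.409).

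How the head values were assembled bears on these genes. Of the 41 members, 9 shared an entry with another gene in some head library, 28 had an assembled entry in some library, and 13 stood alone under a FlyBase identifier in all 8. With FlyBase entries of 1 gene only, 23 of 24 somatic members were lower in pellets and their median log2 difference was -0.33, relative to the median gene. The estimate for Rpn7 in supernatant replicate 1 was marked as failed in the files. Pros29 was summed with its neighbour CG10543, whose estimate was marked as failed in pellet replicate 1 and supernatant replicate 4, where the entry of Pros29 alone stood at 127 and 230 scaled FPKM. All 3 values entered the fit as missing.

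The 2 further replicates of each fraction had files without gene names, and their loci were matched to the members by at least 50% reciprocal overlap. They belong to other library numbers and had not entered the test. In replicate 5, 25 of 27 matched somatic members were lower in the pellet than in the supernatant relative to the median locus (median log2 difference -0.46), beside 50.9% of the 2718 matched features. In replicate 6, 18 of 23 were lower (median -0.60), beside 51.6%. The sets were chosen unlike: the 2718 features had to match in all 4 libraries, with values above 0 and a mean of 1 or more. A member needed a match, by its own span, only in both libraries of the replicate. By particle, 11 of 12 core members were lower in each of these replicates, and of the regulatory members 14 of 15 in replicate 5 and 7 of 11 in replicate 6. Pros28.1 had 84.9 scaled FPKM in the pellet and 90.0 in the supernatant of replicate 5, and 109 in the pellet and 44.9 in the supernatant of replicate 6, so its direction in replicates 1 to 4 was seen in replicate 6 alone.

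Marker levels moved with the fractions too. The summed level of 9 neuronal markers was 1187 to 1890 scaled FPKM in pellets, against 606 to 1014 in supernatants, and 2 of the 9 rose. That of 6 fat body markers was 1963 to 2368 in pellets, against 2865 to 3417 in supernatants, and 1 fell. Glial, photoreceptor and muscle sums overlapped between fractions, at 168 to 307 in pellets and 116 to 522 in supernatants for glia, 8693 to 33938 and 8520 to 14717 for photoreceptors, and 356 to 611 and 339 to 4002 for muscle. No marker of these lists was listed at 0 throughout. Their part in the lower proteasome values was not tested.

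Testis forms stayed low in heads beside their somatic genes. Among the 11 forms whose partner is known by name, no value of their own entries in replicates 1 to 4 was above 5.93% of the level of the somatic gene. By locus overlap the share reached 13.2% in replicate 5, for Prosalpha6T in the pellet (16.9 beside 128 scaled FPKM), and 9.79% in replicate 6, for Pros28.1B in the supernatant. Replicates 5 and 6 were scaled apart, so their levels are not on the scale of replicates 1 to 4. Of the forms with a locus in both fractions, 0 of 7 were lower in the pellet in replicate 5 (median log2 difference 0.64) and 0 of 2 in replicate 6 (median 0.37), relative to the median locus. These counts leave out forms matched in 1 fraction alone. In replicate 6, Pros28.1B, Prosalpha6T, Prosbeta2R1, Rpn12R and Rpt4R had a locus in the supernatant alone, at 1.80 to 12.8 scaled FPKM. In replicate 5, Prosbeta2R1 and Prosbeta2R2 had one in the pellet alone, and Pros28.1A and Rpt4R in the supernatant alone. All 13 were above 0 in some library and 9 in all 8. In replicates 1 to 4 the test took the 4 whose mean reached 1, with a median log2 difference of -0.13, and none passed in limma, at an unadjusted p under 0.05 or with the block. Prosalpha6T had 1.30, 1.15, 2.18 and 2.24 scaled FPKM in pellets and 1.51, 1.56, 3.03 and 3.36 in supernatants (log2 difference -0.34, limma adjusted p = 0.543). Prosbeta5R had 2.26, 1.22, 3.81 and 2.49 in pellets and 2.95, 2.53, 3.45 and 1.98 in supernatants (log2 difference -0.19, limma adjusted p = 0.745). Rpt6R, which fell in S2 cells, had 1.09, 0.780, 1.45 and 1.89 in pellets and 1.23, 0.334, 2.04 and 1.67 in supernatants (log2 difference 0.06, limma adjusted p = 0.943). The fractions overlapped for each of these genes.

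Prosbeta4R2 (dm3 chromosome 2L, 2654049 to 2657102) lies beside Prosbeta4R1 (2653046 to 2653926), another copy of the same subunit gene. The Prosbeta4R2 feature was joined with Or23a in all 8 libraries and had 1.77, 1.31, 1.74 and 1.19 scaled FPKM in pellets and 1.84, 0.426, 2.68 and 2.25 in supernatants (log2 difference -0.07, limma adjusted p = 0.935). Prosbeta4R1 stayed at 0.222 to 0.463 in pellets and 0.0416 to 0.403 in supernatants. Of the 8 other untested forms, Prosbeta2R1 ranged from 0.699 to 1.18 in pellets and from 0.316 to 1.31 in supernatants, Rpn12R from 0.319 to 0.612 and from 0.283 to 0.634, Rpt4R from 0.187 to 0.755 and from 0.350 to 0.458, and Pros28.1B (Prosalpha4T2) from 0.112 to 0.568 and from 0.225 to 0.970. Pros28.1A ranged from 0.0766 to 0.303 in pellets and from 0 to 0.405 in supernatants, Prosalpha3T from 0 to 0.243 and from 0 to 0.182, and the own entries of Rpt3R, which was joined with CG16908 in 1 library, from 0 to 0.549 and from 0 to 0.969. Prosbeta2R2 was the one form without overlap, at 0 to 0.0430 in pellets and 0.0751 to 0.104 in supernatants, levels too low for the test. The 20 testis markers, held in 18 head features because Mst84Db, Mst84Dc and Mst84Dd share 1, were each above 0 in some library, with a summed level of 445 to 556 in pellets and 552 to 836 in supernatants, and none of the 14 features tested passed.

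The Rpn13 copy CG6789, outside the rule, passed the unpaired head test. Its mean reached the minimum of 1 through the pellets alone, so that only a difference of this direction could have been called. It had 3.62, 2.55, 7.41 and 6.09 scaled FPKM in pellets, against 0.481, 0.176, 0.928 and 1.43 in supernatants. Each pellet was above each supernatant, with means of 4.92 ± 2.22 and 0.755 ± 0.548 (SD, n = 4 each; log2 difference 2.12, SE 0.42, limma adjusted p = 0.0328, and 0.0138 with the block). It passed under 12 of 18 alternatives and missed the threshold when any of 6 of the 8 libraries was left out, with adjusted p-values up to 0.105. The somatic Rpn13 gene, CG13349, had 61.7, 64.8, 26.6 and 61.5 in pellets and 88.6, 98.4, 48.7 and 47.8 in supernatants (log2 difference -0.40, limma adjusted p = 0.547).

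Of the 62 pathway genes tested in heads, 2 rose (3.23%) and 1 fell (1.61%), with a median log2 difference of -0.05, beside 2.02% and 1.81% of all features. RpL40, which encodes ubiquitin fused to a ribosomal protein, had 4663 ± 613 scaled FPKM in pellets and 12649 ± 884 in supernatants (SD, n = 4 each; log2 difference -1.45, limma adjusted p = 0.000896, and 0.054 with quantile normalization). The activator of proteasome genes, cnc, had 133 ± 22.6 in pellets and 64.2 ± 5.85 in supernatants (log2 difference 1.04, limma adjusted p = 0.0153). Without pellet replicate 1, supernatant replicate 2 or supernatant replicate 4 its adjusted p was 0.0504, 0.0558 or 0.0569. The deubiquitinase Usp7 had 498 ± 297 in pellets and 94.3 ± 29.2 in supernatants (log2 difference 2.21, limma adjusted p = 0.0466, and 0.0501 with the block), and it passed under 8 of 19 alternatives.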

How the data were processed

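Per the labels' protocols the S2 libraries were made from poly(A)-selected RNA. The S2 values are RPKM per gene as deposited by the authors, and the submitters' processing notes list CASAVA 1.9.1, Bowtie, cutadapt and Novoalign. The head values are FPKM as deposited by the authors, given for annotated genes or assembled loci; CASAVA 1.9.1, TopHat and Cufflinks are listed for them, and the build is dm3. The role of each tool is not given in the sources used here. Of 14447 named head features, 14410 had a value in all 8 libraries, and genes joined in any library were merged. Libraries were scaled by median-of-ratios factors (0.934 to 1.09 in S2 cells, 1.27 to 1.65 in pellets, 0.665 to 0.737 in supernatants). The test was limma (version 3.58.1, R 4.3.3), two-sided and with a mean-variance trend, run on log2(scaled value + 0.5) over genes whose mean was 1 or more, adjusted by Benjamini-Hochberg over all genes tested. Tables and figures were made with pandas 2.3.3, numpy 2.4.6 and matplotlib 3.10.9 under Python 3.11.15. The procedure was run on simulated data with independent noise. Joined entries, failed estimates and pairing of replicates were not simulated, and no result here rests on that run.

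The members, gene lists and marker lists were chosen with earlier results of these data known. Given in full were members that passed, the highest and lowest log2 difference of each of the alpha, beta, base and lid groups, and testis forms above 0. Pathway genes that passed were named up to 10 per comparison by p. Members named beyond this rule, and the subunit genes under other symbols, were chosen after their values were seen.

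Pellets and supernatants of the same number deviated together across genes (correlations 0.168, 0.193, 0.325 and 0.199 for replicates 1 to 4). Pellets 1 to 4 had at most 0.143, 0.115, 0.0414 and -0.0529 with a supernatant of another number. Supernatants 1 to 4 had at most 0.115, 0.143, -0.0529 and 0.0414 with a pellet of another number. The pairing of head libraries by number therefore comes from the data and not from the labels, and it is uncertain for replicates 1 and 2, where another number also exceeded 0.1. Alternatives were pseudocounts of 0.1 and 1, no filter, a stricter minimum of 5, quantile normalization, values as deposited, no variance trend, the replicate block and each replicate left out, and for heads features of 1 gene, exact 0 as missing and replicates 5 and 6 added. Own entries of joined members and FlyBase entries of 1 gene only were added after seeing the data. Promoter sequences were not analysed here.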

Additional observations from a re-analysis of the deposited data

Results flagged for a closer look

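Among 61 groups of 4 head libraries of the members, 7 held 1 library set apart from the other 3 by more than Dixon's 95% critical value, where chance gives about 1 in 20 groups. All values are scaled FPKM. Of these, 4 were values of assembled entries: Rpn2 in pellet replicate 4 stood at 330.0 against 87.9 to 123 in the other pellets, Prosbeta7 in pellet replicate 2 at 161 against 39.96 to 55.4, Prosbeta5 in pellet replicate 3 at 85.7 against 107 to 110.1, and the Pros25 feature, which includes CG5245, in supernatant replicate 1 at 393 against 85.1 to 106 in the other supernatants. The Rpn12 feature in pellet replicate 4 stood at 13240.3 against 436 to 716, where the entry of Rpn12 alone held 79.7. Under FlyBase entries, Pros26.4 (Rpt2) in pellet replicate 3 stood at 66.8 against 89.3 to 93.3, and Rpn9 in supernatant replicate 3 at 39.4 against 54.9 to 57.5.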

How the results depend on the processing

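In S2 cells, leaving out 1 library gave 1241 to 3350 genes called (2604 with all 4), 4 to 11 members called (7 with all 4), core medians of -0.24 to 0.04 and regulatory medians of -0.27 to -0.12. The fewest calls came without Orb2B replicate 1 (1241 genes, 4 members), followed by 1735 genes without Orb2B replicate 2, and the most members passed without background replicate 2 (11). A lone library of a group was assumed to vary like the other group. Quantile normalization moved the regulatory median to -0.40 and the core median to -0.30, and the cause was not tested. S2 libraries of the same number did not pair (correlation 0.0502), and with the replicate block 3036 genes and 8 members were called, Pros25 being the gain.

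In heads, 330 features and none of the members were called. The replicate block gave 1273 features and 9 members, and apart from the genes named with it in the report no call among members, subunit genes under other symbols and called pathway genes changed. Values as deposited gave 4576 features, 4536 of them higher in pellets and 40 lower, and 6 members, all higher, with core and regulatory medians of 0.60 and 0.58. On that scale Pros26 (0.83, in a feature joined with other genes), Prosbeta1 (0.67), Prosbeta5 (0.78), Rpt3 (0.81) and Tbp-1 (0.56) passed in the direction opposite to their scaled differences. The median over all features was 0.87 there, and 2 of 28 somatic members were lower, against 26 of 28 when scaled. A minimum of 5 and quantile normalization each let 1 member pass, Prosalpha7 (limma adjusted p = 0.042 and 0.0491). Replicates 5 and 6 added by locus overlap, over 2708 features, gave 164 calls with 2 members (Pros28.1 0.0356, Prosalpha7 0.0222), and FlyBase entries of 1 gene only, over 5395 features, gave 144 calls with 1 member. Leaving out 1 library gave 140 to 306 features, 0 members each time, core medians of -0.48 to -0.24 and regulatory medians of -0.54 to -0.31. The lowest counts were 140, 144, 179 and 195, without supernatant replicates 1, 4 and 2 and pellet replicate 1. The unknown depth of the head libraries limits what low testis forms can show.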
